A study of Mus musculus with 8 samples.

Results

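The genes described here are 10 that mark red pulp macrophages of the spleen or handle iron and heme: Spic, Vcam1, Slc40a1, Hmox1, Cd163, Siglec1, Mrc1, Axl, Tfrc and Slc11a1. They were chosen by name, as the probes to which the scanner files give one of these gene names, which took 14 of 41174 probes and 10 of the 28786 genes named on the array. The list was drawn up with the tissue difference of these data known, so the spleen and blood values of the 10 genes are given as a description, with errors and without a test. The samples were Ly-6C-high monocytes of healthy, untreated C57BL/6 mice, females of 8 to 12 weeks fed chow. Cells high for CD11b and Ly-6C were sorted, after setting aside those that carried CD90, B220, CD49b, NK1.1 or Ly-6G and those with more than low F4/80, I-Ab or CD11c. The blood group and the spleen group held 4 samples each, numbered 1 to 4, with 1000 sorted cells a sample and 4 mice in all, each of which gave both tissues according to the design text. No label ties a number to a mouse, so the groups were compared as unpaired.

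Red pulp macrophages clear aged red blood cells. They degrade the heme of the engulfed cells, and they return the iron to the plasma or store it in ferritin. Spi-C, the transcription factor encoded by Spic, is required for their development, and heme induces Spic by removing the repressor Bach1. Monocytes that enter the spleen can give rise to such macrophages and take up Spic, Vcam1 and the iron exporter on the way. Mature red pulp macrophages carry high F4/80 on their surface, and the sort kept cells low for it.

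Values are log2 levels from the authors' value table unless the scanner files are named. A level of 6.8 was taken as the background level, since the scanner's mark for a signal clear of background was set for 99.2% or more of probes in any step of 0.1 above it, in each matching array. For blood 1 to 3, the deposited scanner file and the table column of the same label ranked the probes differently (rank correlations 0.842 to 0.872), while the remaining 5 pairs matched, so results are also given from the 5 matching arrays. The 5 matching files had 26539 to 29571 probes well above background, and precision is set by how few arrays there are. Genes of Ly-6C-high monocytes were bright in every sample: Ccr2, which guides monocytes out of the marrow, averaged 14.10 in the 4 blood samples (SD 0.26) and 13.68 in the 3 spleen samples with a value (SD 0.23). F4/80 itself, encoded by Adgre1, was at 13.10 in both tissues. Of the other antigens that the sort kept low, Itgax, the gene of CD11c, was at 7.39 in blood and 9.20 in spleen. Its values did not overlap, and the difference was 1.80 ± 0.48 (SE). H2-Ab1, the gene of an I-Ab chain, was at 12.93 and 13.40, with overlapping values (0.47 ± 0.42, SE). All statements concern sorted bulk samples, in which fewer cells of a type and less RNA per cell cannot be told apart.

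Each probe is an oligonucleotide of 60 bases, and the results turn on how the probes of Vcam1, Spic and Slc40a1 read, so the first 30 bases of those 6 probes are shown as the scanner files give them, 5′ to 3′. Probes of a gene are numbered from the brightest.
Vcam1 probe 1: tatatttttataggcaaatggtaaagaggt
Vcam1 probe 2: aaccaagagtttggaagtaacctttactcc
Vcam1 probe 3: ggggaacaatgaatcaagatactagtgatt
Spic probe 1: gagccagaatgtcttcagaaaaatgtgggg
Spic probe 2: tggtgttaaaagaaacctagatgtttcaga
Slc40a1 probe 1: ttctagagcaacaatagtcacaaaagttcc
On the mouse build mm7, Vcam1 probe 1 lies on the minus strand at chr3:115885211-115885270, probe 2 at chr3:115900948-115901007 and probe 3 at chr3:115891967-115892026. Probe 2 thus starts 15737 bases from probe 1, towards the 5′ end of the gene, and probe 3 was designed on the cDNA clone AK085320 and not on the reference transcript. Both Spic probes are on the minus strand of chromosome 10, at chr10:88234176-88234235 and chr10:88234289-88234348, and start 113 bases apart. The Slc40a1 probe lies at chr1:46145061-46145120 on the minus strand. Whether the probes lie in exons or untranslated regions was not analysed here.

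Spic, Vcam1 and Slc40a1 were brighter in every measured spleen sample than in any blood sample, and the other genes of the 10 overlapped between the tissues. Of all 18266 genes tested, 1.88% had every spleen value above every blood value, 1.41% had every spleen value below every blood value, and 3.30% fell in either class. The list was known to hold such genes when it was drawn up, so nothing is read from this share. Among the 10 genes, 9 reached the background level on at least 4 arrays and Tfrc did not. Vcam1 reached it on all 4 spleen arrays and 1 blood array, and Slc40a1 on 3 spleen arrays and 1 blood array, so both passed mainly through the tissue in which they were brighter.

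Spic, the transcription factor of the red pulp lineage, was well measured on all 8 arrays. Its brighter probe was at 8.22, 7.71, 7.29 and 8.35 in blood 1 to 4 and at 9.58, 8.72, 10.49 and 8.69 in spleen 1 to 4. Every spleen sample lay above every blood sample, but spleen 2 and spleen 4 were within 0.5 of the highest blood values, and the gap between the groups was 0.34. The means were 7.89 ± 0.48 (SD, n = 4) and 9.37 ± 0.85 (SD, n = 4), a difference of 1.48 ± 0.43 (SE, 95% interval 0.52 to 2.44), or 2.78-fold. The other probe was dimmer, at 6.34 to 7.18 in blood and 8.42, 7.17 and 6.98 in spleen 1, 3 and 4, with no value for spleen 2. On that probe the tissues overlapped, and only spleen 1 lay above all blood values. The difference was 0.73 ± 0.39 (SE, 95% interval -0.16 to 1.63). The mean differences of the Spic probes therefore had the same sign and differed in size, and the interval of the dimmer probe spanned both signs. In the 5 matching columns of the table, of which 1 is from blood, the brighter probe differed by 1.02.

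Vcam1 encodes an adhesion molecule that binds the integrin VLA-4 and is carried by red pulp macrophages and by activated endothelium. Its brightest probe was at 6.38, 6.58, 6.57 and 6.98 in blood 1 to 4, so 3 of 4 blood arrays lay below the background level. In spleen 1 to 4 it was at 8.06, 8.63, 9.17 and 9.89, all clear of that level. The means were 6.63 ± 0.25 (SD, n = 4) and 8.94 ± 0.78 (SD, n = 4), a difference of 2.31 ± 0.37 (SE, 95% interval 1.48 to 3.14), or 4.97-fold. The size is uncertain because blood was near background, and the table, which shows no sign of background subtraction, narrows differences of dim probes.

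The other Vcam1 probes did not repeat this in full. Probe 2 was below the background level in all blood samples, at 6.12 to 6.26, and read 6.08, 8.51, 7.36 and 7.44 in spleen 1 to 4. Spleen 1, which was clear on probe 1, was thus at background on probe 2. The spleen mean of 7.35 lay 1.46-fold above the background level. It was 1.18 above the blood mean of 6.17, which was itself below that level. Probe 3, on the cDNA clone, stayed between 6.26 and 6.37 on all 8 arrays and gave no signal in either tissue.

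Slc40a1 encodes ferroportin, the exporter through which macrophages release iron. It was at 6.68, 6.26, 7.61 and 6.57 in blood 1 to 4, above the background level only in blood 3. In spleen 1, 3 and 4 it was at 9.16, 9.01 and 8.69, and the table has no value for spleen 2. The spleen values were close together and stood 1.08 above the highest blood value. The means were 6.78 ± 0.58 (SD, n = 4) and 8.95 ± 0.24 (SD, n = 3), a difference of 2.17 ± 0.34 (SE, 95% interval 1.39 to 2.95), or 4.51-fold. Spleen 2 has a value in its scanner file, where the probe was at -0.84 relative to the 75th percentile of the array, against -0.15 to 0.14 in spleen 1 and 3, -0.49 in spleen 4 and -4.86 in blood 4.

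**Figure D1:**
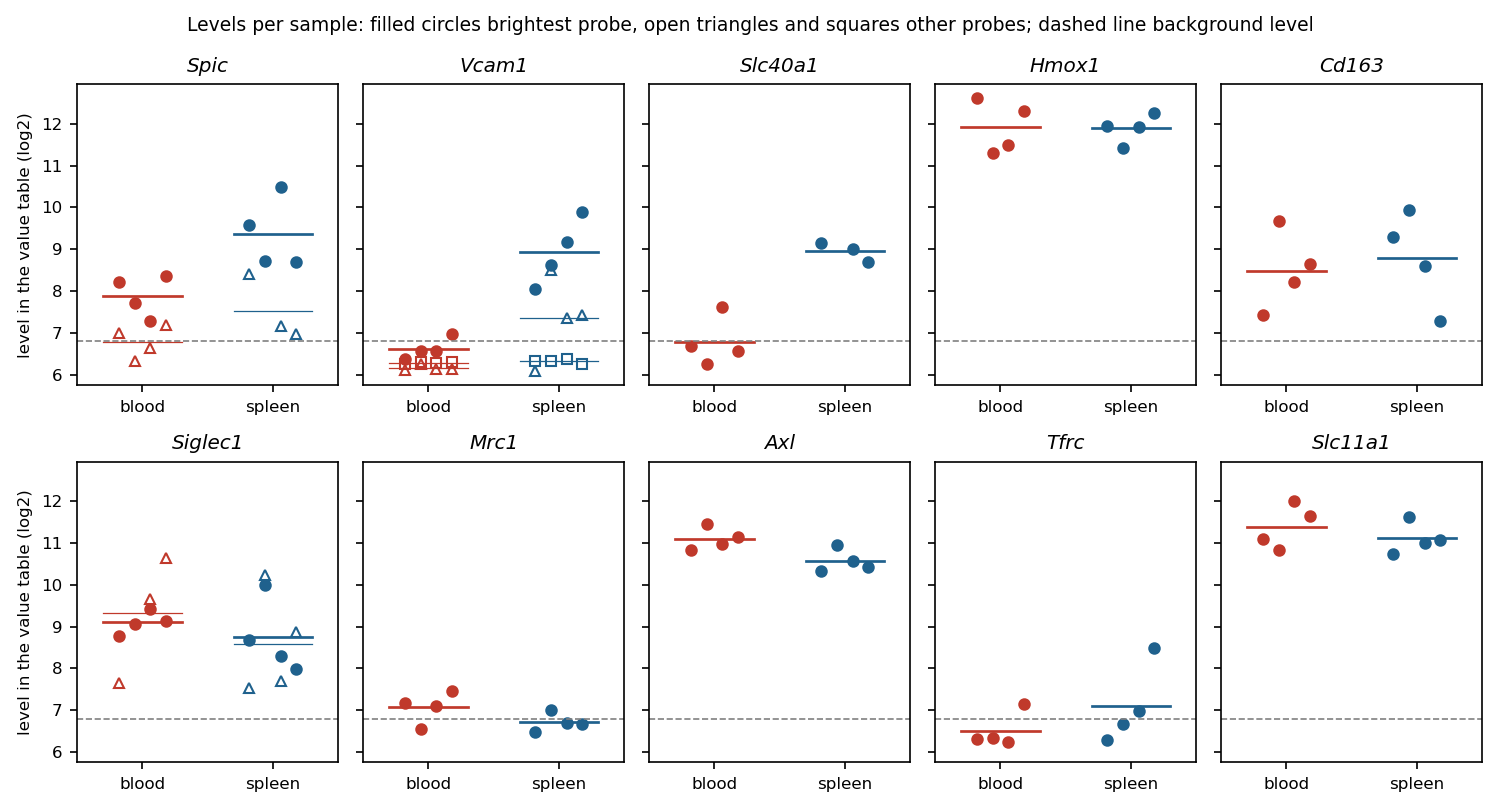
Level of each of the 10 genes in the 4 blood (red) and 4 spleen (blue) samples, in log2 units of the authors' value table. Filled circles are the brightest probe, open triangles and squares the dimmer probes of the same gene, horizontal bars the means and the dashed line the background level of 6.8. The filled circles of Spic, Vcam1 and Slc40a1 separate by tissue, with Vcam1 at 6.38 to 6.98 in blood and 8.06 to 9.89 in spleen, while those of the other genes overlap.

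The order of the spleen samples differed between these 3 genes and between probes of a gene. On the brightest probe, Spic was highest in spleen 3, Vcam1 in spleen 4 and Slc40a1 in spleen 1, with no Slc40a1 value for spleen 2. On the second probe, Spic was highest in spleen 1 and Vcam1 in spleen 2. Spleen 1 had the lowest Vcam1 value of the spleen samples on both informative probes and the highest Slc40a1 value. Blood 4 and spleen 4, the only matching pair of both tissues on 1 slide, differed by 2.91 for Vcam1, 2.11 for Slc40a1 and 0.34 for Spic in the table, with spleen 4 higher each time.

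Hmox1, which encodes the inducible heme oxygenase that opens the heme ring, was bright in both tissues. It was at 12.61, 11.30, 11.48 and 12.30 in blood 1 to 4 and at 11.95, 11.43, 11.93 and 12.25 in spleen 1 to 4. The blood values spanned the spleen values entirely. The means were 11.92 ± 0.63 (SD, n = 4) and 11.89 ± 0.34 (SD, n = 4), and the difference was -0.03 ± 0.33 (SE, 95% interval -0.78 to 0.72). Both ends of this interval lie within 2-fold. Its probe lies on the plus strand at chr8:73642229-73642288.

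Cd163, the receptor that takes up haptoglobin-bound hemoglobin, varied widely within each tissue. It was at 7.43, 9.67, 8.21 and 8.66 in blood 1 to 4 and at 9.30, 9.95, 8.61 and 7.28 in spleen 1 to 4. The highest value in both tissues belonged to the sample numbered 2, and the lowest of all to spleen 4. The difference was 0.29 ± 0.61 (SE, 95% interval -1.09 to 1.67), less than the spread within blood (SD 0.93) or spleen (SD 1.15). Without blood 1 it was -0.06, and without spleen 2 it was -0.10, so its sign depended on single samples. The probe is at chr6:124312766-124312825 on the plus strand.

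Siglec1 encodes CD169, the sialic acid receptor of metallophilic macrophages at the edge of the splenic white pulp. Its brighter probe was at 8.78, 9.06, 9.43 and 9.13 in blood 1 to 4 and at 8.69, 10, 8.29 and 7.99 in spleen 1 to 4. Spleen 2 was above all blood samples and the other spleen samples were below all of them. The difference was -0.36 ± 0.41 (SE, 95% interval -1.27 to 0.55). With 1 sample left out it ran from -0.11 (without spleen 4) to -1.56 (without blood 1, where the second probe stood for the gene). The second probe, 14484 bases away, was at 7.65, 9.65 and 10.64 in blood 1, 3 and 4 and at 7.53, 10.24, 7.71 and 8.88 in spleen 1 to 4. It too had its highest spleen value in spleen 2, and its difference was -0.73 ± 0.82 (SE). The probes lie on the minus strand at chr2:130810326-130810385 and chr2:130824810-130824869.

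Mrc1, the mannose receptor of tissue macrophages, was near background throughout. It was at 7.18, 6.56, 7.10 and 7.45 in blood 1 to 4 and at 6.48, 7.01, 6.70 and 6.66 in spleen 1 to 4. Thus 3 blood arrays and 1 spleen array reached the background level. The difference was -0.36 ± 0.24 (SE, 95% interval -0.91 to 0.19). Its probe is at chr2:14281098-14281158 on the plus strand.

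Axl, a receptor tyrosine kinase that lets macrophages engulf dying cells, was bright in both tissues. It was at 10.82, 11.44, 10.97 and 11.14 in blood 1 to 4 and at 10.32, 10.94, 10.56 and 10.42 in spleen 1 to 4. Only spleen 2 reached into the blood range. The means were 11.10 ± 0.27 (SD, n = 4) and 10.56 ± 0.27 (SD, n = 4), a difference of -0.54 ± 0.23 (SE, 95% interval -1.05 to -0.02). The sign was thus opposite to that of Spic, Vcam1 and Slc40a1. The probe lies at chr7:22531966-22532025 on the minus strand.

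Tfrc encodes the transferrin receptor, which imports iron and is abundant on dividing cells and red cell precursors. It was at 6.32, 6.33, 6.25 and 7.16 in blood 1 to 4 and at 6.30, 6.66, 6.97 and 8.48 in spleen 1 to 4. Only blood 4, spleen 3 and spleen 4 reached the background level, which is why the gene was not tested. Spleen 4 was the brightest and blood 4 the next. The probe lies at chr16:32306693-32306752 on the plus strand.

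Slc11a1 encodes Nramp1, which moves iron and manganese out of the phagosome and whose protein does not function in C57BL/6 mice because of an inherited substitution. Its transcript was at 11.09, 10.82, 11.99 and 11.63 in blood 1 to 4 and at 10.73, 11.62, 11 and 11.07 in spleen 1 to 4. The ranges overlapped, and the difference was -0.28 ± 0.31 (SE, 95% interval -0.97 to 0.42). Its probe is at chr1:74625260-74625319 on the plus strand. Spleen 2 had the highest spleen value for Cd163, for both probes of Siglec1, and for Mrc1, Axl and Slc11a1. It was also the highest on Vcam1 probe 2 and was not on the brighter probes of Spic and Vcam1. Among the scanner files, that of spleen 2 was the only one from its slide, so sample and slide cannot be told apart for spleen 2.

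**Figure D2:**
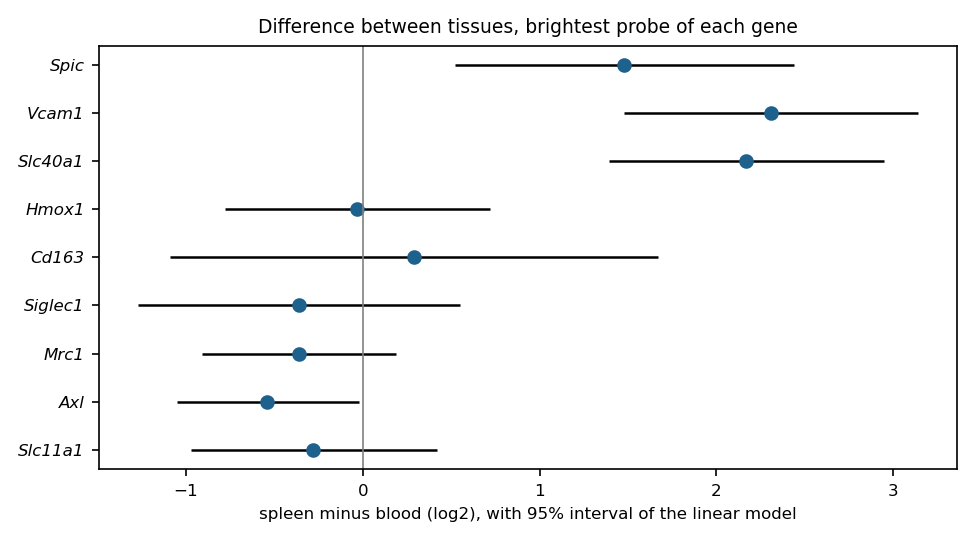
Difference between tissues (spleen minus blood, log2) for the brightest probe of the 9 genes that passed the filter on dim probes. Points are differences of group means and lines are 95% intervals of the linear model, from 4 blood and 4 spleen samples (3 spleen samples for Slc40a1). Vcam1 (2.31), Slc40a1 (2.17) and Spic (1.48) stand on the right and Axl (-0.54) has the lowest value.

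The patterns across the 8 columns were compared with those of 5317 other genes that were above background on every array and varied by an SD of at least 0.5. Only Spic, Cd163 and Siglec1 met the same conditions. The genes closest to Spic were Tsen15, Spns3 and Itih5 (Pearson correlations 0.96, 0.95 and 0.94), of which Spns3 was 1.52 higher in spleen. Among those closest to Cd163 were the clone AK038250 and Snupn (0.96 and 0.94). Those closest to Siglec1 were Mrps18a, Tbxas1 and the clone AK040074 (0.99, 0.95 and 0.94). These are the highest of many correlations over 8 columns that share 2 tissues, and they are given as a description.

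The other genes of iron and heme handling were split between the tissues. Of 40 listed, 32 were measured, 19 higher and 13 lower in spleen, with a median difference of 0.12 against -0.008 over all genes. None passed limma's test after Benjamini-Hochberg adjustment over all genes, where 0% of the 18266 genes passed. Without adjustment, 992 genes (5.43%) and 2 of the list had a p under 0.05. Variants of the test called 0 to 13 genes of the whole table and none of this list.

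The chains of the storage protein ferritin were bright in all samples. Fth1, the heavy chain, was at 15.61 in blood and 15.76 in spleen, and Ftl1, the light chain, at 13.47 and 13.37, with differences of 0.15 ± 0.20 and -0.11 ± 0.23 (SE, n = 4 per tissue). Hmox2, the constitutive heme oxygenase, differed by -0.07 ± 0.31 (SE), and Blvrb, a biliverdin reductase, by 0.24 ± 0.36 (SE). Slc48a1, which carries heme out of the phagosome, differed by -0.59 ± 0.43 (SE). Hamp, which encodes the hormone hepcidin, the second transferrin receptor Tfr2, the ferroxidase Heph and the ferric reductase Cybrd1 lay below the background level on all 8 arrays.

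The smallest p-values of the list belonged to Hfe and Trf. Hfe, the hemochromatosis protein that binds the transferrin receptor, was at 10.48, 10.67, 9.64 and 9.27 in blood 1 to 4 and at 11.16, 11.18, 11.30 and 11.17 in spleen 1 to 4. All spleen values were above all blood values, and the difference was 1.19 ± 0.32 (SE, limma adjusted p = 0.57). Trf, the gene of transferrin, was at 10.22 to 10.80 in blood and 9.83 to 10.13 in spleen, a difference of -0.58 ± 0.21 (SE, limma adjusted p = 0.756) with every spleen value below every blood value. Ncoa4, the receptor that delivers ferritin to lysosomes, differed by 0.63 ± 0.30 and Pgrmc1, a heme-binding protein, by 0.58 ± 0.32 (SE). Slc25a28, a mitochondrial iron importer, differed by -0.67 ± 0.43 (SE). Their limma adjusted p-values ran from 0.941 to 1.

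Bach1 and Nrf2, the factors that repress and activate Hmox1 and other genes of the oxidative response, were looked at through 14 listed genes, of which 11 were measured. In spleen 6 of these were higher and 5 lower, the median difference was 0.03, and none passed. Txnrd1, a thioredoxin reductase, was 0.50 ± 0.25 (SE) higher in spleen, Maff 0.14 ± 0.38 and Keap1, the inhibitor of Nrf2, 0.11 ± 0.40. Bach2, a relative of Bach1, differed by -1.0 ± 0.55 (SE), and the small Maf partners Mafg and Mafk by -0.59 ± 0.33 and -0.44 ± 0.34. The limma adjusted p of these 6 genes was 0.941 or more.

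Of 23 other markers of red pulp macrophages, 17 were measured. In spleen 11 were higher and 6 lower, the median difference was 0.15 and none passed the test, while 2 had an unadjusted p under 0.05. The mean level over the 16 markers with 8 values was 9.25 to 9.47 in blood and 9.47 to 9.74 in spleen. Treml4, a receptor of the TREM family that Ly-6C-low monocytes also carry, was at 11.37 to 11.95 in blood and at 13.26, 12.30, 12.97 and 13.26 in spleen 1 to 4, a difference of 1.23 ± 0.27 (SE, limma adjusted p = 0.381). Nr1h3, the liver X receptor alpha of splenic macrophages, was 1.06 ± 0.46 (SE) higher in spleen with overlapping values (limma adjusted p = 0.892).

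Several defining genes of mature red pulp macrophages were at or near background. Vsig4, a complement receptor, was above the background level in blood 3 only, at 8.20. Timd4, a receptor for dying cells, reached it in spleen 1 and spleen 4, at 7.28 and 7.46. Cd5l, a secreted protein of these macrophages, was at 6.76 to 6.97 in blood and at 6.93, 6.78, 7.73 and 6.98 in spleen 1 to 4, a difference of 0.28 ± 0.24 (SE). Mertk, a relative of Axl, reached the level in blood 3 and spleen 4, at 7.64 and 6.99, and Fcna, a ficolin, in spleen 2 and spleen 3, at 6.92 and 7.45. Blood 3 was thus the blood sample with the highest Vsig4 and Mertk, and it also had the highest Slc40a1 of the blood samples. C1qa (9.97) and the brighter Siglec1 probe (9.43) were also highest in blood 3 among the blood samples. The brighter Spic probe (7.29) had its lowest blood value there. So did Timd4 (6.17), which was below the background level in every blood sample. Vcam1 probe 1 was below background in blood 3 (6.57), as it was in blood 1 and blood 2. Of the complement C1q chains, C1qa was at 7.39, 7.55, 9.97 and 8.51 in blood 1 to 4 and at 7.59, 10.63, 9.07 and 7.75 in spleen 1 to 4, so that spleen 2 was the highest and the tissues overlapped. C1qb differed by 0.17 ± 0.24 (SE). C1qc was below the level in blood, at 6.17 to 6.35, and at 6.45, 6.93, 7.91 and 7.35 in spleen 1 to 4. Its values did not overlap, though spleen 1 was also below the level. The part of these markers in the Spic, Vcam1 and Slc40a1 values was not tested.

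Axl has the relatives Tyro3 and Mertk, and is engaged through bridging ligands. Tyro3 differed by -0.01 ± 0.21, Gas6, the ligand of Axl, by 0.23 ± 0.35 and Pros1, protein S, by -0.23 ± 0.33 (SE), with a limma adjusted p of 1 for each and a median of -0.01 over the 3 measured genes of 4. Among 9 partners of Vcam1 in adhesion, 4 were higher in spleen and 5 lower, and the median difference was nil after rounding. Itga4, the chain of VLA-4 that binds Vcam1, was at 13.10 in blood and 12.82 in spleen, and its partner Itgb1 at 11.86 and 11.92.

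Genes of other cells that a spleen sort could hold were measured in the same way. For marginal zone macrophages, 3 genes of 5 were measured, with a median of 0.21. Marco, a scavenger receptor, was at 8.07 to 8.84 in blood and at 8.15, 9.74, 10.57 and 10.99 in spleen 1 to 4 (1.49 ± 0.55, SE, limma adjusted p = 0.768), Cd209b reached the background level in spleen 2 only, and Lyve1 on no array. Marco was chosen for naming after its values were seen. Red cell precursors were covered by 10 measured genes of 20, of which 4 were higher in spleen and 6 lower, with a median of -0.04 and a mean level of 7.73 to 7.91 in blood and 7.68 to 7.93 in spleen. Klf1 and Rhag were below background on all 8 arrays, while Alas2, the erythroid heme synthesis enzyme, was 0.87 ± 0.24 (SE) higher in spleen without overlap (limma adjusted p = 0.631). Sptb differed by 0.39 ± 0.71 and Epor, the erythropoietin receptor, by -0.26 ± 0.21 (SE).

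Endothelial and stromal cells, which can also carry Vcam1, were covered by 8 measured genes of 16, split evenly by direction (4 each), with a median of -0.01. Their mean level was 7.87 to 8.25 in blood and 7.82 to 8.37 in spleen. Cdh5, Tek, Lyve1, Pdpn and Cxcl13 were below background on all 8 arrays. Plvap differed by 0.24 ± 0.22, Ccl19 by 0.41 ± 0.40, Col1a2 by -0.22 ± 0.20 and Pecam1 by -0.51 ± 0.23 (SE), Pecam1 without overlap. Dendritic cell genes had a median of 0.27 (6 of 7 higher) and mean levels of 8.82 to 9.11 in blood and 9.22 to 9.70 in spleen. Of these genes only Itgax did not overlap between the tissues (limma adjusted p = 0.57).

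The highest medians of the 16 lists were those of neutrophils and of cell division. Of 10 measured neutrophil genes 9 were higher in spleen, with a median of 1.94 and mean levels of 7.43 to 8.73 in blood and 10.26 to 11.48 in spleen. Of 14 proliferation genes 12 were higher, with a median of 1.17 and mean levels of 8.47 to 8.69 in blood and 9.21 to 10.47 in spleen. At an unadjusted p under 0.05 there were 7 of the neutrophil and 8 of the proliferation genes, and none passed limma's adjusted test. The smallest adjusted p was 0.0536, shared by Camp, Lcn2, Ltf and S100a8 of neutrophils and Top2a of dividing cells, and these 5 were called by 4 of the alternatives. Both mean levels separated the tissues, as those of dendritic cell genes did, and both were highest in spleen 3, where the brighter Spic probe, but not the other, was also highest. Their part in the values of these genes was not tested. The B and T cell lists had medians of 0.09 and 0.18, the 1 measured NK cell gene differed by 0.05, platelet genes had a median of -0.47, and genes of Ly-6C-high monocytes had one of -0.13.

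**Figure D3:**
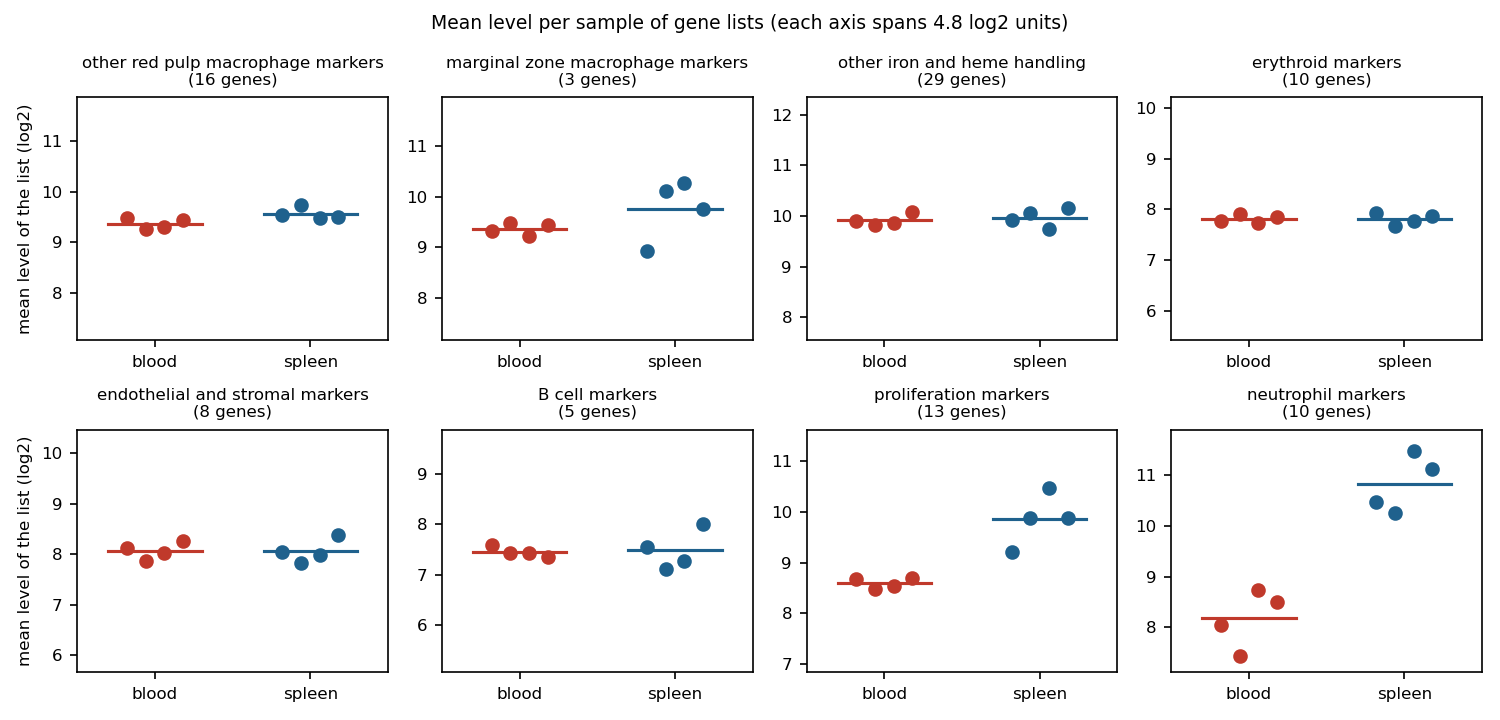
Mean level per sample (log2, authors' value table) of the measured genes of 8 lists that have a value on all 8 arrays, in the 4 blood (red) and 4 spleen (blue) samples, with horizontal bars at the group means. The lists of other red pulp markers (9.25 to 9.47 in blood and 9.47 to 9.74 in spleen), of iron handling and of erythroid and endothelial genes lie at nearly the same level in both tissues, and the neutrophil and proliferation lists are higher in spleen.

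The scanner files give another set of values for the same labels, as log2 of the background-subtracted signal minus the 75th percentile of the array. In the matching files, Vcam1 probe 1 was at -3.12 in blood 4 and at -1.10, -0.38, 0.12 and 0.96 in spleen 1 to 4, and Slc40a1 was at -4.86 and -0.84 to 0.14. On this scale the difference between spleen 4 and blood 4, on 1 slide, was 4.08 for Vcam1, 4.37 for Slc40a1 and 0.42 for Spic. For the second probes it was 4.65 for Vcam1 and -0.38 for Spic. The files labelled blood 1, blood 2 and blood 3 went another way for some of the genes. Vcam1 was at 1.57, 1.55 and -5.46 in them, so that blood 1 and blood 2 were above every spleen file and blood 3 below all others. Slc40a1 was at -1.57, -0.48 and -5.64, and Spic at -0.11, -1.51 and -1.59.

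With all 8 scanner files no gene of the 10 separated the tissues, against 3 in the table. In the 5 matching files, as in the 5 matching columns, the same 3 genes were higher in every spleen sample. In each set 4 others were lower in every one, which is easily met with a single blood array. Hmox1, Siglec1 and Axl were lower in both sets, Mrc1 only in the files and Slc11a1 only in the columns, where Mrc1 was not tested. With all 8 files the differences were 1.26 for Vcam1, 2.80 for Slc40a1 and 1.22 for Spic, of the same sign as in the table. With normexp background correction and quantile normalization of these files they were 0.46, 1.47 and 1.07. At the 75th percentile Axl turned to 1.87 and Siglec1 to 1.13 higher in spleen, and Cd163 to -1.32. With the 5 matching files alone Axl was at -0.57, Siglec1 at -2.43, with its other probe standing for the gene, and Cd163 at -0.02. Cd163 was at 2.80 and 2.0 in the files labelled blood 1 and blood 2, above the range of -2.78 to 0.82 in the 5 matching files. No source used here says which values belong to blood 1 to 3.

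**Figure D4:**
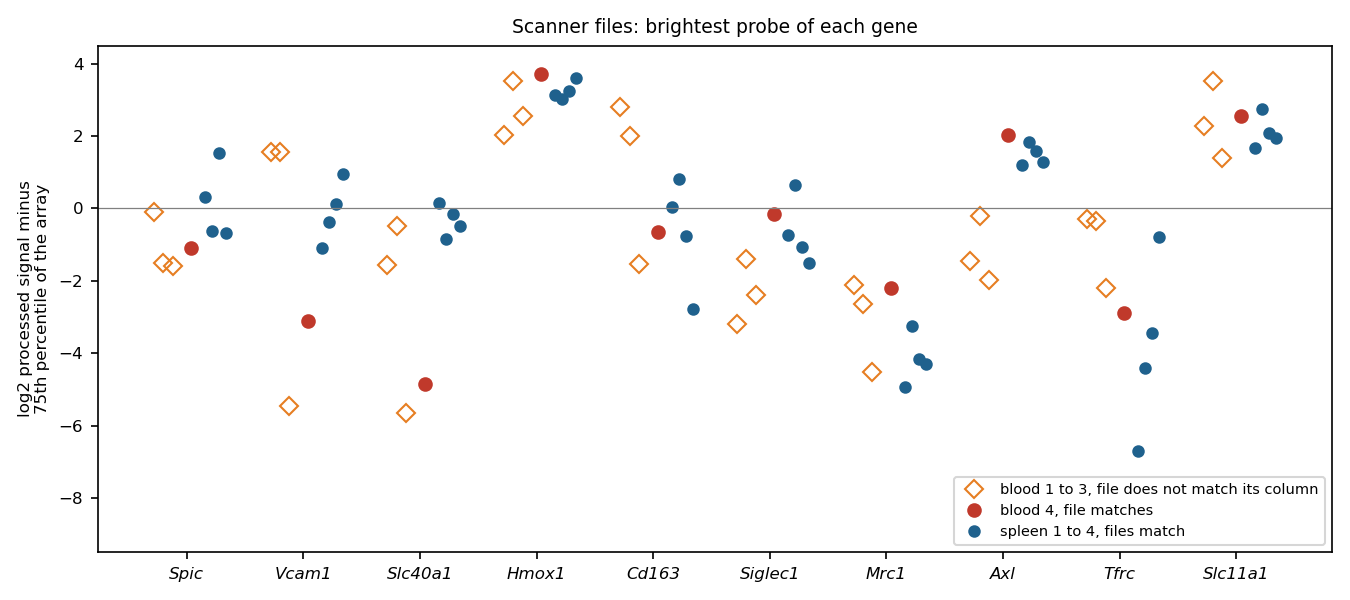
Brightest probe of each of the 10 genes in the 8 scanner files, as log2 processed signal minus the 75th percentile of the array. Orange diamonds are the files labelled blood 1 to 3, which do not match their table columns, the red circle is blood 4 and blue circles are spleen 1 to 4, which do. For Vcam1, 2 diamonds lie above all spleen values and 1 lies at -5.46, below blood 4 at -3.12.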

How the data were processed

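RNA of 8 sorted monocyte samples (5 ng each, integrity number 8 or more) was amplified, labelled with Cy3 and hybridized to 1-colour arrays. The authors' deposited value table holds log2 levels; limma is named in the submitters' processing notes, and its settings and version are not given in the sources used here. All columns had the median 7.31, and matching columns ranked probes as the scanner's median signal did. Per the file headers, the deposited scanner files hold spot intensity values from Agilent Feature Extraction and other scanner flags, not normalized between arrays, with probes placed on mm7. Probes were named through accessions in a RefSeq table of GRCm38.p6 (22951 of 41174, 55.7%), otherwise by the file.

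Probes at or above 6.8 on at least 4 arrays, with at least 3 values per tissue, were kept, and the brightest stood for a gene. R 4.3.3 with limma 3.58.1 (lmFit, eBayes) compared spleen with blood, with Benjamini-Hochberg adjustment at 0.05, checked on simulated data. Missing values were left out of each fit. P-values rest on the spread among these samples only, which may be partly technical. The 10 genes and the 16 lists were chosen with earlier results of these data known. Named were all 10 genes, the 3 genes of smallest p per direction in the iron, Bach1 and Nrf2, red pulp and Axl family lists, 2 in the erythroid and endothelial lists, and genes of the most similar pattern. Of the iron and red pulp lists, further genes were named after their values were seen, as were Itgax and H2-Ab1 of the dendritic cell list. Alternatives covered filters, probe choice, variance models, replicate block, scanner values and leaving out each sample. A few genes that these rules name are not reported here.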

Additional observations from a re-analysis of the deposited data

Results flagged for a closer look

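Of 25 sets of 4 values of the 10 genes, 2 held a sample far from the others, where chance gives about 1 in 20. Tfrc was at 7.16 in blood 4 and at 6.25 to 6.33 in the other blood samples. Vcam1 probe 2 was at 6.26 in blood 2, and all 4 blood values of that probe were below the background level. In the scanner files labelled blood 1 to 3, which the comparison does not use, 6 values were more than 0.5 above the highest of the 5 matching files. Vcam1 was at 1.57 in the file labelled blood 1 and 1.55 in that labelled blood 2, against at most 0.96. Cd163 was at 2.80 and 2.0 in the same files, against at most 0.82. Tfrc was at -0.28 in the file labelled blood 1, against at most -0.80, and Slc11a1 at 3.53 in that labelled blood 2, against at most 2.76.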

How the results depend on the processing

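The number of genes called over the whole table was 0. It was 1 when all 8 arrays had to reach the background level, 7 for the mean over probes, 9 for weighted arrays, 8 when the variance followed a trend, and 4 with either setting of all scanner files. A replicate block, taken as random, gave 13, and as fixed 1. Same-numbered samples had deviations from their tissue means correlated by 0.087 to 0.141, and differently numbered ones by -0.115 to 0.034. Every same-numbered pair was thus more alike than any other pair. The main comparison stayed unpaired because no label ties a number to a mouse. Listed genes called were 5 (Camp, Lcn2, Ltf, S100a8 and Top2a) with the mean over probes, array weights, the trend or the random block, and 1 and 2 with all scanner files at the 75th percentile and with normexp. Leaving out 1 sample gave 0 to 3 genes and 0 to 2 listed genes, above 0 without blood 1 (3 and 1), blood 2 (2 and 2), spleen 1 (3 and 2) or spleen 2 (1 and 1). The number of the 10 genes with every spleen value above every blood value was 3. It was 1 when all 8 arrays had to reach the level, where Vcam1 and Slc40a1 are not tested, 0 with all scanner files and 2 to 3 with 1 sample left out. Genes wholly lower in spleen numbered 0, but 1 without blood 1 or blood 2 and 2 without spleen 2. Without blood 3, spleen 1, spleen 3 or spleen 4, Slc40a1 was not tested, for too few arrays above background; Vcam1 ranged from 2.0 to 2.61 and Spic from 1.1 to 1.70. Spic, Vcam1, Slc40a1, Mrc1 and Slc11a1 kept their sign in every alternative that tested them. Vcam1 ran from 0.46 to 4.08 and Slc40a1 from 1.47 to 4.53. Hmox1 turned in 5, Cd163 in 7, and Siglec1 and Axl in 2 each. These signs are of the probe that stood for the gene, and the second Spic probe turned between blood 4 and spleen 4 (-0.20). Values near 6.8 are limited by signal over background.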
